A study of Mus musculus with 4 samples.

Results

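The 10 genes described here encode subunits of the AMPA and NMDA receptors, the ion channels that carry most fast excitatory transmission between neurons. They are Gria1, Gria2, Gria3 and Gria4 for AMPA receptors and Grin1, Grin2a, Grin2b, Grin2c, Grin2d and Grin3a for NMDA receptors. They were taken by symbol, 10 of 32285 genes counted, with no threshold on a measured value. RNA was counted in single nuclei of mouse spinal dorsal horn, the part of the cord that receives touch and pain signals, with the 10x Genomics 3' chemistry. The 4 libraries were Gpr37l1-/- mice 1 day after spared nerve injury (KO SNI), Gpr37l1-/- mice without injury (KO naive), Gpr37l1+/+ mice 1 day after spared nerve injury (WT SNI) and Gpr37l1+/+ mice without injury (WT naive). Gpr37l1 encodes a receptor carried mostly by glia, and spared nerve injury is a partial cut of the sciatic nerve used as a model of neuropathic pain. The design asks how the knockout and the injury bear on dorsal horn cells. Each group is 1 library, so no difference between groups could be tested, and every interval below covers counting error only. Age, sex and the number of animals behind a library are not given in the labels.

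An AMPA receptor is a tetramer of Gria subunits that opens briefly when glutamate binds. Its calcium permeability is set largely by Gria2: the mature Gria2 protein, recoded by RNA editing at a pore codon, keeps calcium out. An NMDA receptor needs the obligatory subunit Grin1 together with Grin2 subunits, which set its kinetics and its block by magnesium, while Grin3a lowers calcium entry. In the dorsal horn, both receptor types take part in the strengthening of synapses known as central sensitisation.

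The pore holds the codon whose editing in Gria2 bears on calcium entry, so the coding bases around that codon are shown for the 4 AMPA genes. They were read from GENCODE vM21 transcripts (GRCm38), with the codon in capitals. Editing itself was not measured, since the deposited files hold counts and no bases.
Gria1: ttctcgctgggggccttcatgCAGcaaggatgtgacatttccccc
Gria2: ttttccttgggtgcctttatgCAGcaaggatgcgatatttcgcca
Gria3: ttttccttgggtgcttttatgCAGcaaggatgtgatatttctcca
Gria4: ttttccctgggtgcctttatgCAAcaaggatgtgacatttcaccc
The stretches lie at chr11:57243073-57243117 on the plus strand for Gria1, chr3:80706890-80706934 on the minus strand for Gria2, chrX:41610244-41610288 on the plus strand for Gria3 and chr9:4464116-4464160 on the minus strand for Gria4, in exon 11 of Gria1, Gria2 and Gria3 and exon 12 of Gria4. Of the 45 bases, 36 were the same in Gria1 as in Gria2, 42 in Gria3 and 39 in Gria4. All 4 genes have a glutamine codon in the genome, and the edited form arises in RNA by adenosine deamination, chiefly in Gria2.

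The whole genes span chr11:57011387-57330244 (Gria1), chr3:80681450-80802835 (Gria2), chrX:41400854-41678601 (Gria3) and chr9:4417896-4796234 (Gria4). For the NMDA genes the spans are chr2:25291181-25319187 (Grin1), chr16:9567898-9995560 (Grin2a), chr6:135713233-136173511 (Grin2b), chr11:115249169-115267243 (Grin2c), chr7:45831883-45878378 (Grin2d) and chr4:49661611-49845744 (Grin3a). Gene length ranges between 18.1 kb for Grin2c and 460.3 kb for Grin2b, so UMI levels are compared below for 1 gene at a time. Where a UMI ratio of a pair of genes is given, it is compared between classes or libraries, and its size is not a ratio of molecules. Grin3a has 1 counted gene on its own strand inside it, Ppp3r2, so its count may have lost reads that fit both. Genes on the opposite strand overlap Grin1 (Grin1os), Grin2b (3 non-coding genes) and Grin2d (Gm45441 and Kdelr1), and whether counting used the strand was not stated.

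The libraries held 28019, 37552, 27233 and 19942 barcodes (KO SNI, KO naive, WT SNI and WT naive) and 35197290 to 69572640 UMIs. Between 162 and 293 barcodes were shared by any pair of libraries, at most 1.05% of the smaller one. Gpr37l1 checked the genotype labels: over all kept nuclei it stood at 0.249 CPM (UMIs scaled to a common total, mitochondrial genes left out) in KO SNI, 0.310 in KO naive, 25.5 in WT SNI and 14.5 in WT naive. A treatment tag in the labels gives the opposite injury state for KO naive and WT SNI, and the titles were followed. Sprr1a and Atf3, genes induced by nerve injury, had 555 and 354 UMIs in KO SNI, 1 and 7 in KO naive, 50 and 43 in WT SNI and 0 and 6 in WT naive, so both libraries titled SNI were the higher ones. The KO naive library stood apart: 17.8% and 18.3% of all genes were past 1.5-fold against WT naive in inhibitory and excitatory nuclei, whereas KO SNI against WT SNI gave 4.49% and 4.86%.

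Nuclei were grouped into excitatory neurons (6621, 7962, 4699 and 4664 nuclei in KO SNI, KO naive, WT SNI and WT naive), inhibitory neurons (5324, 6212, 4525 and 3898), astrocyte-like nuclei (2062, 1506, 1446 and 999), oligodendrocyte-precursor-like nuclei (620, 688, 514 and 389), oligodendrocyte-like nuclei (2879, 4615, 2667 and 2853) and microglia-like nuclei (854, 572, 456 and 424). A further 26.9%, 36.0%, 41.3% and 25.4% of kept nuclei stayed unnamed, among them neuronal clusters that were neither clearly excitatory nor inhibitory. The largest unnamed cluster, led by Actb and Aldoc, held 266, 4762, 4607 and 84 nuclei in that order of libraries, so the nuclei left out differ between libraries. Another unnamed cluster, led by Gm32122 and 6030407O03Rik, held 1871, 1662, 1425 and 1627 nuclei. Its oligodendrocyte markers were high, at a mean log2 ratio of 2.25 to other nuclei, so the oligodendrocyte-like class does not hold all such nuclei. Neuronal RNA was found in every class: the 6 neuron markers (Snap25, Rbfox3, Syt1, Celf4, Elavl4 and Snhg11) stood in astrocyte-like nuclei at 0.299, 0.503, 0.277 and 0.184 of their neuronal level in KO SNI, KO naive, WT SNI and WT naive. A receptor level in glia is therefore read below beside that of these markers.

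In neurons, all AMPA genes and 5 of the 6 NMDA genes were counted in large numbers, and their levels in the 4 libraries lay close together. Gria2, the subunit that limits calcium entry, had 1636 CPM in KO SNI, 1541 in KO naive, 1772 in WT SNI and 2059.9 in WT naive excitatory nuclei. Its levels in inhibitory nuclei were 1126, 1125, 1223 and 1314 CPM in the same libraries. WT naive was the highest library in both kinds of neuron, and no inhibitory value reached the lowest excitatory one. Gria4, a subunit of fast-gating receptors, ran the other way, with 1019.8, 1244, 972 and 863 CPM in excitatory nuclei (KO SNI, KO naive, WT SNI and WT naive) and 1519, 1730, 1421 and 1417 CPM in inhibitory nuclei. KO naive was its highest library in both. Gria1, whose insertion into synapses accompanies potentiation, was nearly level among libraries, at 582, 569, 554 and 538 CPM in excitatory and 659.8, 684, 626 and 639.8 CPM in inhibitory nuclei. Gria3 had 438, 519.6, 499 and 498 CPM in excitatory nuclei and 759, 807, 819.6 and 904 CPM in inhibitory nuclei, so the kinds of neuron did not overlap.

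Among NMDA genes, the obligatory Grin1 had 316, 318, 343 and 393 CPM in excitatory nuclei of KO SNI, KO naive, WT SNI and WT naive, and 382, 360.4, 382 and 458 CPM in inhibitory nuclei. WT naive was again highest in both. Grin2a, which gives receptors of fast decay, had 689, 706, 608 and 622 CPM in excitatory and 635, 652, 559.8 and 595 CPM in inhibitory nuclei. Both knockout libraries lay above both wild-type ones in each kind for Grin2a, as they did for Gria1, Gria4 and Grin3a. The share of all genes with that order was not taken. Grin2b, which gives slower receptors, had 724, 680.3, 758 and 833 CPM in excitatory and 555, 517, 567 and 605 CPM in inhibitory nuclei. Its order of libraries, WT naive highest and KO naive lowest, was that of Gria2 in excitatory nuclei. Grin3a had 496, 519, 459 and 479.6 CPM in excitatory and 224, 278, 212 and 195 CPM in inhibitory nuclei. Grin2d, a subunit with weak magnesium block, lay at 43.4 to 47.5 CPM in excitatory and 49.0 to 54.0 CPM in inhibitory nuclei, with Poisson intervals of the libraries that overlapped. Grin2c, best known in cerebellum and astrocytes, was close to absent from neurons, at 0.602, 1.39, 1.46 and 0.516 CPM in excitatory nuclei (6, 22, 13 and 4 UMIs) and 3.94, 4.18, 3.06 and 2.94 CPM in inhibitory nuclei.

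**Figure D1:**
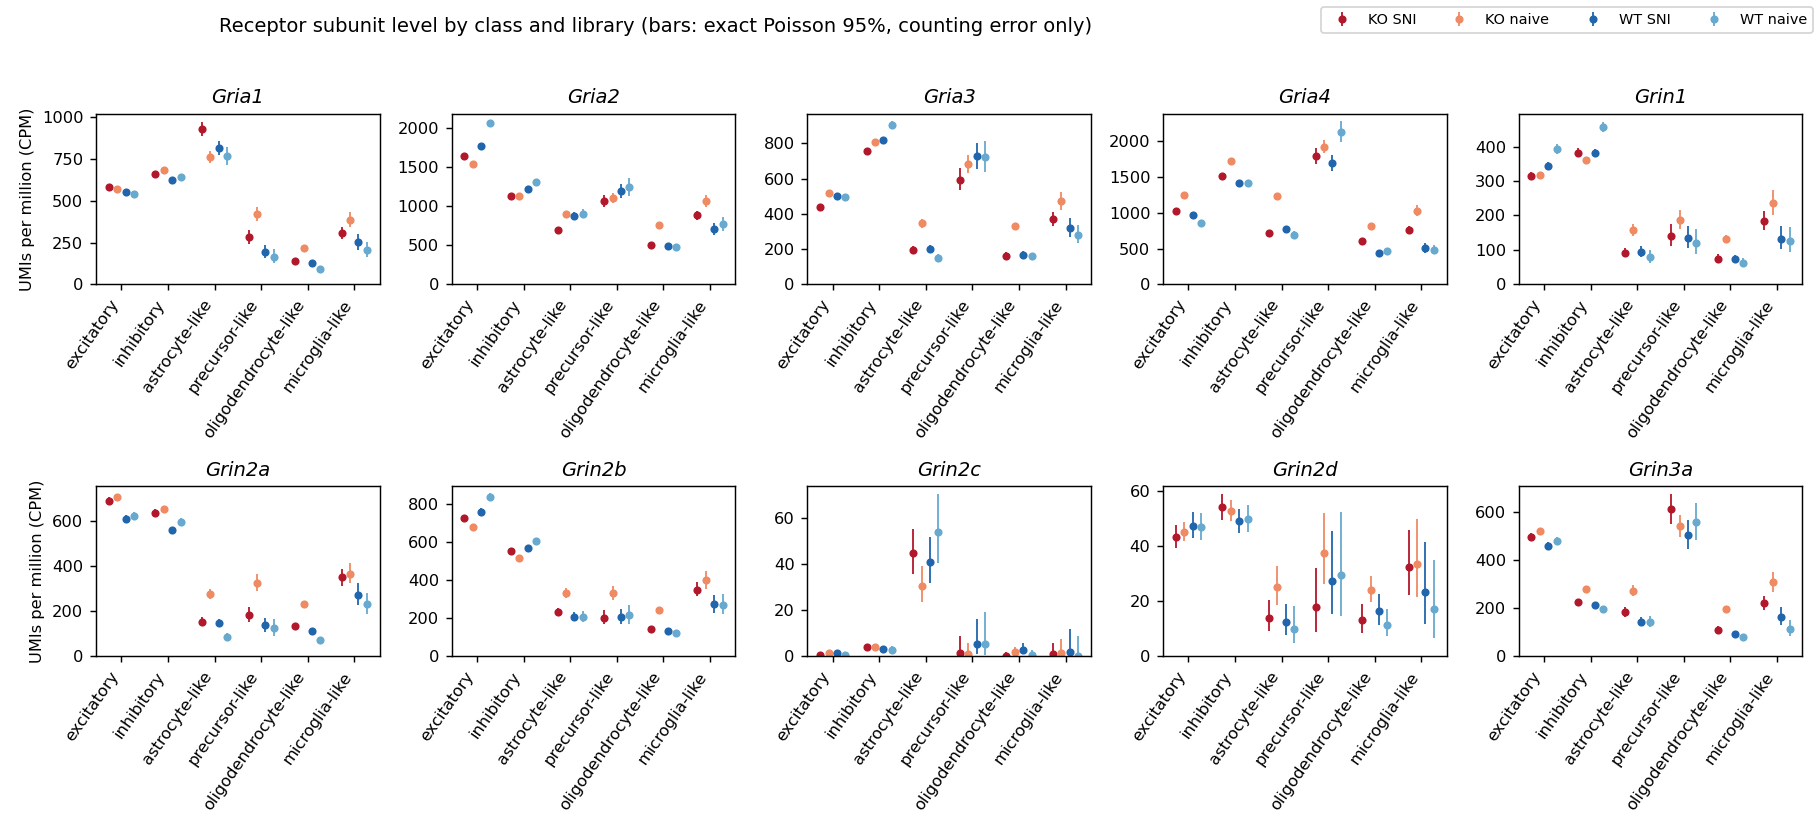
Level (CPM) of each subunit in each class of nuclei, 1 point per library (KO SNI, KO naive, WT SNI and WT naive, left to right) with the exact Poisson 95% interval. Gria1 is highest in astrocyte-like nuclei, Grin2c is near 0 outside them, and the KO naive points lie above the others in most glial panels.

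Excitatory and inhibitory nuclei differed in subunit make-up, and each of the 10 genes leaned the same way in all 4 libraries. Of the 9 members with at least 50 UMIs over both kinds in every library, 4 were higher in excitatory nuclei in 4 of 4 libraries (24.6% of all genes) and 5 were lower (29%). Grin3a leaned most to excitatory nuclei, with a log2 ratio of excitatory to inhibitory CPM of 1.15 (95% interval 1.07 to 1.22) in KO SNI, 0.90 (0.84 to 0.96) in KO naive, 1.11 (1.04 to 1.19) in WT SNI and 1.30 (1.21 to 1.38) in WT naive. Gria2 followed at 0.54, 0.45, 0.53 and 0.65, then Grin2b at 0.38, 0.40, 0.42 and 0.46. Grin2a was nearly even, at 0.12, 0.12, 0.12 and 0.06. Inhibitory nuclei had more of the other AMPA genes: the log2 ratio of Gria3 was -0.79, -0.64, -0.71 and -0.86, that of Gria4 -0.57, -0.48, -0.55 and -0.72, and that of Gria1 -0.18, -0.26, -0.18 and -0.25. Grin1 was also lower in excitatory nuclei, at -0.28, -0.18, -0.15 and -0.22. Grin2d had a ratio of -0.32 in KO SNI and -0.22 in KO naive, while its intervals in WT SNI and WT naive included 0. The CPM values of the kinds of neuron overlapped among the 4 libraries for Grin1 and Grin2a. They did not overlap for Gria1, Gria2, Gria3, Gria4, Grin2b, Grin2d and Grin3a, nor for Grin2c, which had few UMIs. The share of all genes without overlap was not taken.

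Past 1.5-fold, the measure used here in place of a test, Grin3a was higher in excitatory nuclei in 4 of 4 libraries, as were 3.44% of all genes, and Gria3 was lower, as were 2.71%. The UMI ratio of Gria4 to Gria2 in excitatory nuclei was 0.623, 0.807, 0.549 and 0.419 in KO SNI, KO naive, WT SNI and WT naive, against 1.35, 1.54, 1.16 and 1.08 in inhibitory nuclei. The ratio of Grin3a to Grin1 was 1.57, 1.63, 1.34 and 1.22 in excitatory nuclei, against 0.587, 0.772, 0.556 and 0.427 in inhibitory nuclei. Both ratios separated the kinds of neuron without overlap among libraries, and both were highest in KO naive and lowest in WT naive.

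**Figure D2:**
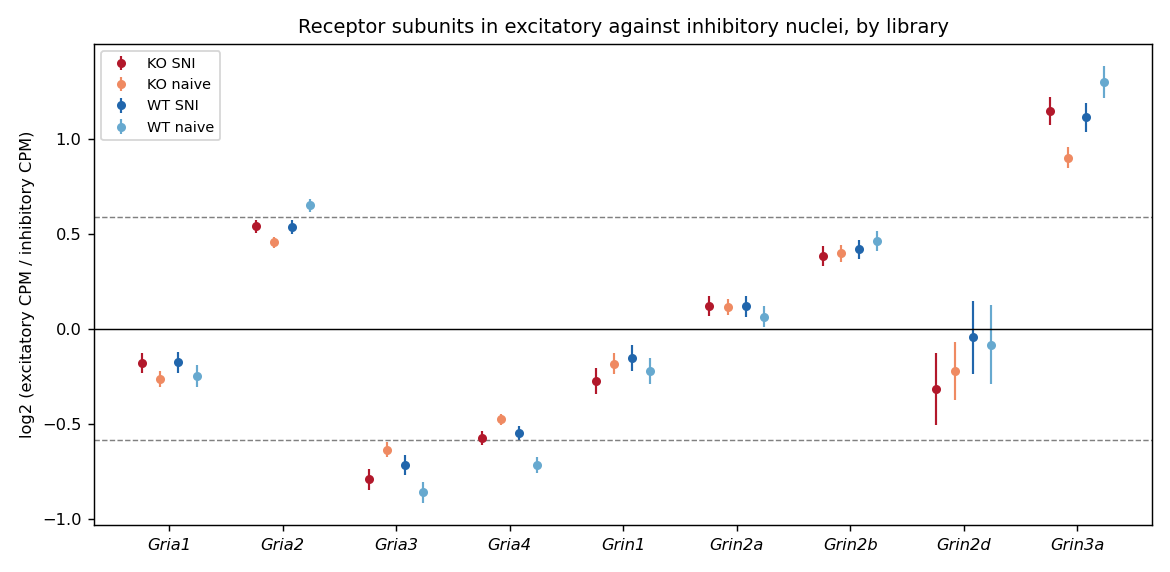
Log2 ratio of excitatory to inhibitory CPM for the 9 subunits other than Grin2c, 1 point per library with the exact 95% interval (counting error only); dashed lines mark 1.5-fold. Grin3a lies between 0.90 and 1.30, Gria3 between -0.86 and -0.64.

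Within each kind of neuron, the subunits ranged more widely over clusters than over libraries, of which there were fewer. Clusters were formed without the 10 members. Over the 9 excitatory clusters with at least 50 nuclei in each library, Grin2a had the widest range, 8.23-fold, followed by Gria1 with 6.78-fold. Over the 17 inhibitory clusters the ranges were 9.08-fold for Grin2a and 7.33-fold for Gria1. Grin1, required by every NMDA receptor, had the narrowest range, 1.5-fold in excitatory and 1.72-fold in inhibitory clusters. Across all genes with at least 500 UMIs in these clusters the median range was 1.63-fold in excitatory and 2.04-fold in inhibitory clusters. Above that median lay 8 of the 10 members in excitatory and 6 of the 10 in inhibitory clusters.

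Grin2a and Gria1 were opposed in excitatory cluster 10, led by the transcription factor gene Maf and by Bmp6. There Grin2a had 1521, 1622, 1309 and 1424 CPM in KO SNI, KO naive, WT SNI and WT naive, the highest excitatory cluster over the summed libraries. Gria1 had its lowest excitatory level in the same cluster, 222, 241, 192 and 137 CPM, in all 4 libraries. Cluster 21, led by Bnc2, Chst9, Trhr and Reln, was the converse for NMDA subunits, with Grin2a at 154, 256, 134 and 118 CPM and Grin2b at 957, 904, 1084 and 1186 CPM. It was the lowest excitatory cluster for Grin2a and the highest for Grin2b in 4 of 4 libraries. Gria1 was highest in cluster 20 (Cpne4, Dach2), at 1587, 1290.3, 1443 and 1322 CPM.

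The AMPA genes Gria2 and Gria4 were likewise opposed between excitatory clusters. Cluster 11, led by Gm1715 and by Nts, the gene of the peptide neurotensin, held the most Gria2 (2934, 2463, 3279.8 and 3800.3 CPM in KO SNI, KO naive, WT SNI and WT naive) and the least Gria4 (484, 775, 350.3 and 304 CPM). Cluster 7, led by D130009I18Rik, D130079A08Rik and Cdh23, held the most Gria4 (1646, 1849.5, 1461 and 1487 CPM) and, summed over libraries, the least Gria2 (1140.4 CPM). These placings held in 4 of 4 libraries, except that of Gria2 in cluster 7, which held in 3 of 4. Grin3a was highest in excitatory cluster 8 (Gm6213, Fer1l6), at 875, 876, 920.4 and 931 CPM.

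Among inhibitory clusters, cluster 23, led by Tyr and the muscarinic receptor gene Chrm3, had the most Gria1 (1452, 1374, 1475 and 1389 CPM in KO SNI, KO naive, WT SNI and WT naive) and the least Gria3 (181, 325, 268 and 304 CPM). Grin2a was highest in cluster 18 (Adamts5, Eya2), at 1408, 1358, 1168 and 1264 CPM, and lowest in cluster 59 (Qrfprl, Cdh23), at 171, 136, 171 and 92.0 CPM. Cluster 17, led by Gucy2d and Hmga2, had the most Grin2c of the 9 excitatory and 17 inhibitory clusters compared, at 27.6, 20.6, 15.7 and 19.4 CPM, with 8.25 CPM summed over libraries in the next one, cluster 52. It also had the most Grin2d when libraries were summed (86.6 CPM).

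**Figure D3:**
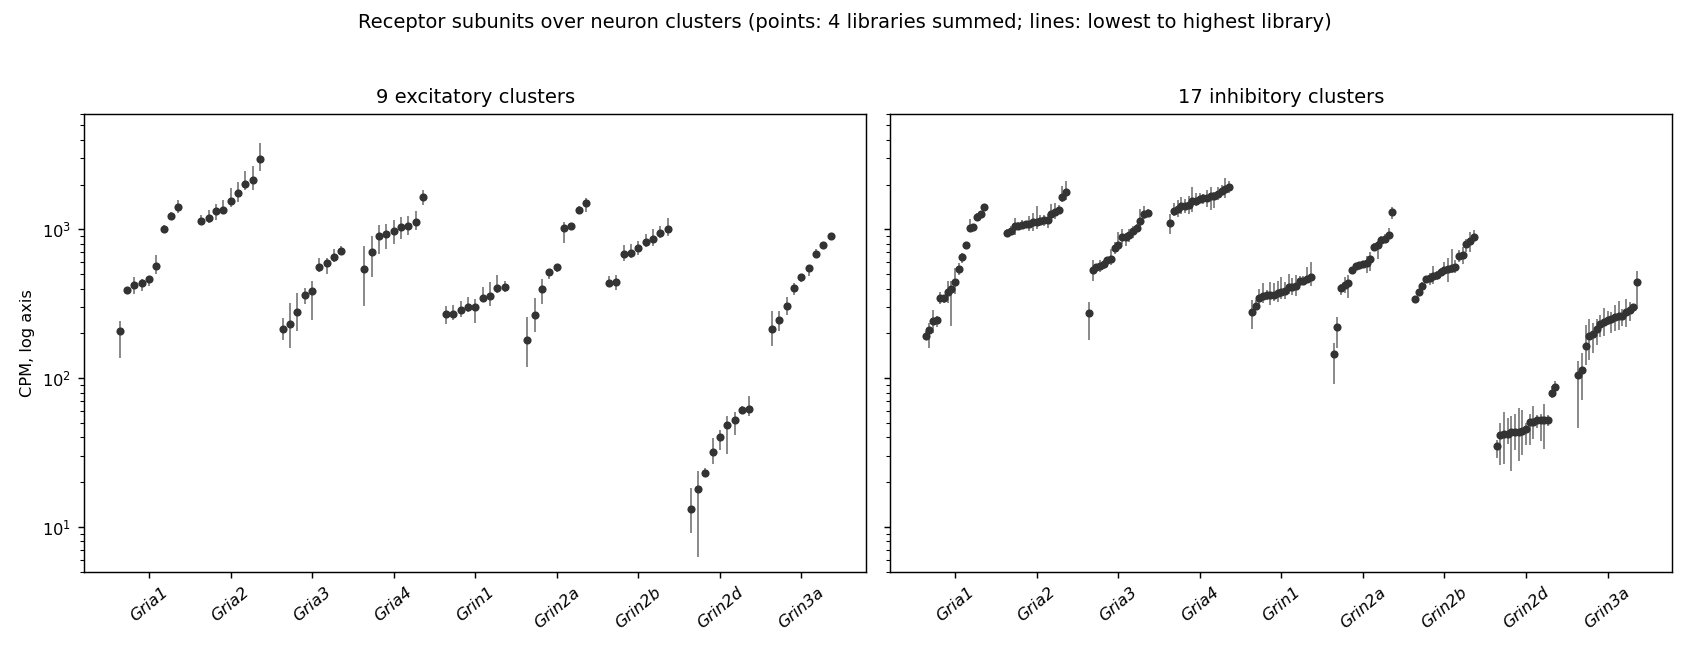
CPM (log axis) of 9 subunits in each excitatory and inhibitory cluster, ordered from low to high for each gene; points are the 4 libraries summed and lines reach from the lowest to the highest library. Grin1 spans 271 to 407 CPM over excitatory clusters, whereas Grin2a spans 182 to 1494 CPM.

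The genes whose levels ran most like a member's over 31 named clusters of at least 200 nuclei, by Pearson r of log2(CPM + 10), were Cdr1os (0.979) and Snhg14 (0.969) for Grin1, and Trim46 (0.923) and Grb10 (0.913) for Grin2b. For the other NMDA genes they were Gm3294 (0.813) and 6330411D24Rik (0.809) for Grin2a, Tom1l1 (0.830) and Mmd2 (0.792) for Grin2c, Chd5 (0.835) and Stxbp5l (0.796) for Grin2d, and Glis1 (0.788) and Gm50368 (0.765) for Grin3a. For AMPA genes they were Prodh (0.772) and Abi2 (0.747) for Gria1, Ttc7b (0.827) and Hoxb5 (0.812) for Gria2, Gm36388 (0.826) and Pnpt1 (0.820) for Gria3, and Gm10125 (0.840) and 9630014M24Rik (0.839) for Gria4. These are descriptions over clusters that share the same 4 libraries.

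Between libraries, no member was past 1.5-fold in neurons in any of the 4 comparisons. In excitatory nuclei, 0 of 9 members with at least 50 UMIs were higher or lower by that measure in KO SNI against WT SNI (2.42% of all genes higher and 2.43% lower), in KO naive against WT naive (4.86% and 13.5%), in KO SNI against KO naive (11% and 1.72%) and in WT SNI against WT naive (3.35% and 2.1%). In inhibitory nuclei, 0 of 10 members passed in the same comparisons, where 2.01% and 2.48%, 4.39% and 13.4%, 10.8% and 2.06%, and 4.15% and 2.22% of all genes were higher and lower. With so few members these counts are near the background. The comparisons share libraries, KO naive and WT naive among them, so their values are not independent.

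In the naive pair, Gria4 was higher in the knockout by a log2 ratio of 0.53 (0.49 to 0.57) in excitatory and 0.29 (0.26 to 0.32) in inhibitory nuclei. Gria2 was lower, at -0.42 (-0.45 to -0.39) and -0.22 (-0.26 to -0.19). Grin1 was lower as well, at -0.31 (-0.37 to -0.24) and -0.34 (-0.41 to -0.28), as was Grin2b, at -0.29 (-0.34 to -0.25) and -0.23 (-0.28 to -0.17). Grin3a was higher by 0.11 (0.06 to 0.17) in excitatory and by 0.51 (0.43 to 0.60) in inhibitory nuclei. The median over the members was 0.06 in excitatory and 0.09 in inhibitory nuclei, beside -0.03 over all genes tested in each. The TMM factor of the pair, a scaling by the bulk of genes, was -0.10 on the log2 scale in excitatory nuclei, which puts every ratio there higher by that amount. With it Gria4 stood past 1.5-fold at 0.63 in excitatory nuclei and Grin3a at 0.59 in inhibitory nuclei.

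These naive differences ran through the clusters. Gria4 was higher in KO naive in 9 of 9 excitatory and 17 of 17 inhibitory clusters, where 26.2% and 14.5% of all genes with enough UMIs were higher in every cluster. Gria2 was lower in 9 of 9 and 17 of 17, and so was Grin1, beside 7.01% and 3.4% of all genes lower in every cluster. Markers moved with them: the 6 neuron markers summed to 7261 CPM in KO naive and 8054 CPM in WT naive excitatory nuclei, and the 8 oligodendrocyte markers, all detected, to 1053 and 829.6 CPM. In inhibitory nuclei the neuron markers summed to 7630.2 CPM in KO naive and 8561 CPM in WT naive. Their part in the receptor values was not tested. Fewer RNA molecules of a gene per nucleus and a different mix of nuclei cannot be told apart in class sums. With the cluster make-up made equal, 74 of 76 neuronal ratios of members stayed within their counting intervals.

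In the injured pair, the differences between knockout and wild type were within 0.19 in excitatory nuclei for the 9 members tested. Grin2a was higher in KO SNI than in WT SNI by 0.18 (0.13 to 0.23) in excitatory and by 0.18 (0.13 to 0.23) in inhibitory nuclei. Gria3 was at -0.19 (-0.25 to -0.13) in excitatory and -0.11 (-0.16 to -0.07) in inhibitory nuclei, and Gria2 at -0.12 (-0.15 to -0.08) and -0.12 (-0.16 to -0.08). Grin1 was lower in excitatory nuclei, at -0.12 (-0.19 to -0.05), in 9 of 9 clusters, as were 4.13% of all genes, and its interval in inhibitory nuclei included 0. The neuron markers were closer here, with sums of 7453 CPM in KO SNI and 7705 CPM in WT SNI excitatory nuclei.

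For the injury itself, Grin1 was lower in WT SNI than in WT naive, at -0.19 (-0.27 to -0.12) in excitatory and -0.26 (-0.33 to -0.20) in inhibitory nuclei. It was lower in 8 of 9 and 16 of 17 clusters. The share of all genes lower in as many clusters was not taken, and clusters of the same pair of libraries are not replicates. Gria2 was lower too, at -0.22 (-0.25 to -0.19) and -0.10 (-0.14 to -0.07). In the knockout pair the same genes stood at -0.01 (-0.07 to 0.06) and 0.09 (0.02 to 0.15) for Grin1, and at 0.09 (0.06 to 0.12) and 0.00 (-0.03 to 0.04) for Gria2. Gria4 was lower in KO SNI than in KO naive, at -0.29 (-0.32 to -0.25) and -0.19 (-0.22 to -0.16), in 9 of 9 and 17 of 17 clusters, as were 13.2% and 5.59% of all genes. Whether the response to injury differs between genotypes was not tested, since each arm is 1 library.

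**Figure D4:**
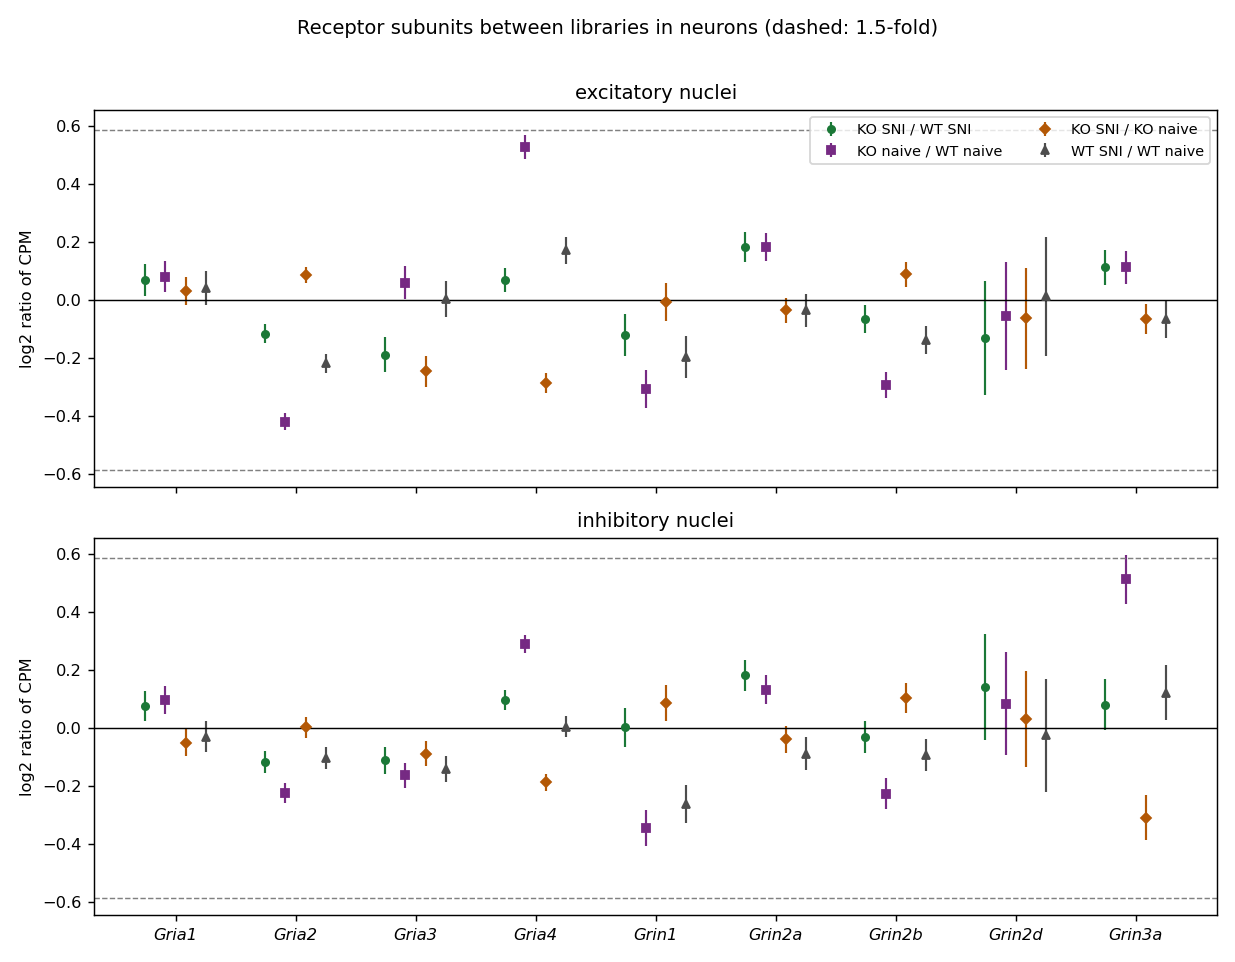
Log2 ratio of CPM between libraries for 9 subunits in excitatory and inhibitory nuclei, with exact 95% intervals (counting error only); dashed lines mark 1.5-fold. All points lie within 1.5-fold, and those farthest out belong to KO naive against WT naive, Gria4 at 0.53 among excitatory and Grin3a at 0.51 among inhibitory nuclei.

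Genes that work with the receptors were read from 5 lists. The auxiliary list held auxiliary subunits, which traffic AMPA receptors and slow their gating, and other partners such as pentraxins. Of its 17 genes, all tested, 0 were past 1.5-fold in KO SNI against WT SNI in either kind of neuron (4.86% of all genes in excitatory and 4.49% in inhibitory nuclei). In the naive pair, Cacng8 was lower in excitatory nuclei (30.9 CPM in KO naive and 47.3 CPM in WT naive, a log2 ratio of -0.61, -0.81 to -0.41), as were 13.5% of all genes. In inhibitory nuclei, Nptx2, a pentraxin that clusters AMPA receptors, was higher (5.94 CPM in KO naive and 2.57 CPM in WT naive, 1.21, 0.50 to 1.97), as were 4.39%. After injury, Cnih2 was higher in WT SNI inhibitory nuclei (7.03 CPM, against 4.29 CPM in WT naive, 0.71, 0.11 to 1.34), as were 4.15% of all genes, and Nptx2 was lower in KO SNI than in KO naive (-0.59, -1.19 to -0.01), as were 2.06%. No other auxiliary gene passed in these comparisons.

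Scaffold genes of the postsynaptic density numbered 15, and 0 were past 1.5-fold in any of the 8 neuronal comparisons, whose shares over all genes are those given with the members. Homer1 came closest, at 0.58 (0.43 to 0.72) in inhibitory and 0.47 (0.32 to 0.63) in excitatory nuclei of KO naive against WT naive. The 8 regulators, kinases and phosphatases of the receptors among them, also had 0 past 1.5-fold. The largest values of that list were 0.50 (0.38 to 0.63) for the phosphatase gene Ptpn5 in excitatory nuclei and -0.51 (-0.64 to -0.38) for Srr, which makes the co-agonist D-serine, in inhibitory nuclei, both in the naive pair. Of the 8 other ionotropic genes, 7 were tested, and 2 kainate receptor genes were past 1.5-fold higher in the naive pair in excitatory nuclei, as were 4.86% of all genes. Grik2 had 918 CPM in KO naive and 581 CPM in WT naive (0.66, 0.61 to 0.71), and Grik3 had 48.5 CPM in KO naive and 29.4 CPM in WT naive (0.72, 0.51 to 0.94). The median of that list was 0.23 there, beside -0.03 over all genes. The 3 editing enzyme genes, Adar, Adarb1 and Adarb2, had 0 past 1.5-fold, and Adarb1, whose enzyme edits the Gria2 pore codon, was at 0.23 (0.11 to 0.35) in excitatory nuclei of the naive pair.

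Glial classes were set against neurons of the same library. A member was counted as above the neuronal background when the lower limit of its class-to-neuron quotient exceeded that of every neuron marker. In astrocyte-like nuclei this held for 3 of the 10 members in 4 of 4 libraries, Gria1, Gria4 and Grin2c, as it did for 47.7% of all genes. In precursor-like nuclei it held for Gria4 and Grin3a, 2 members, beside 5.3% of all genes. Both precursor calls were lost with marked doublets kept, with at least 500 genes and 1000 UMIs, when thinned to 1000 UMIs and when nuclei were called by their own markers. In the first 3 of these settings Gria4 was above every marker in 3 of 4 libraries. In oligodendrocyte-like and microglia-like nuclei it held for 0 members, where 53.9% and 16.5% of all genes passed.

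Gria1 was the member with the highest astrocyte level relative to neurons among those that neurons express. Astrocyte-like nuclei had 927, 761, 814 and 765 CPM in KO SNI, KO naive, WT SNI and WT naive, 1.5, 1.22, 1.38 and 1.30 times the neuronal level. All 4 values lay above both kinds of neuron. Grin2c stood at 44.8, 30.7, 41.0 and 53.9 CPM (86, 65, 69 and 54 UMIs), between 11.5 and 30.6 times the neuronal level. No other class came near it, since oligodendrocyte-like nuclei had 0, 9, 6 and 1 UMIs and microglia-like nuclei 1, 1, 1 and 0 UMIs. Gria4 had 724, 1229.9, 773 and 693 CPM, with quotients between 0.574 and 0.837. Gria2 had 694, 895, 878 and 901 CPM, and its quotient exceeded every marker in WT SNI and WT naive (0.591 and 0.537) and not in KO SNI and KO naive (0.5 and 0.664). The UMI ratio of Gria1 to Gria2 was 1.34, 0.850, 0.928 and 0.849 in astrocyte-like nuclei, against 0.356, 0.369, 0.313 and 0.261 in excitatory neurons.

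Precursor-like nuclei, which in the adult receive synapses from neurons, had the highest Gria4 of any class, 1790.5, 1925, 1690.4 and 2129 CPM in KO SNI, KO naive, WT SNI and WT naive. That was 1.31 to 1.86 times the neuronal level. Grin3a had 609, 539, 504 and 555 CPM, 1.32 to 1.67 times the neuronal level. Against excitatory neurons alone these values were higher in each library, but the Poisson intervals were apart only in KO SNI. They overlapped in KO naive, WT SNI and WT naive. Gria3 had 595, 681, 727 and 720.3 CPM and quotients of 1.00 to 1.09, and Gria2 had 1065, 1103, 1192 and 1243 CPM with quotients of 0.741 to 0.818. The highest marker in these nuclei was Elavl4, at 0.980 to 1.2, whereas the other 5 lay between 0.218 and 0.791. Gria1 was below its neuronal level, with 282, 419, 192 and 165 CPM, as were Grin1, Grin2a and Grin2b. The UMI ratio of Grin3a to Grin1 was 4.32, 2.88, 3.72 and 4.62, against 1.57, 1.63, 1.34 and 1.22 in excitatory neurons. In precursor-like nuclei Grin1 was above every neuron marker in 0 libraries, and the part of neuronal RNA in this ratio was not tested.

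**Figure D5:**
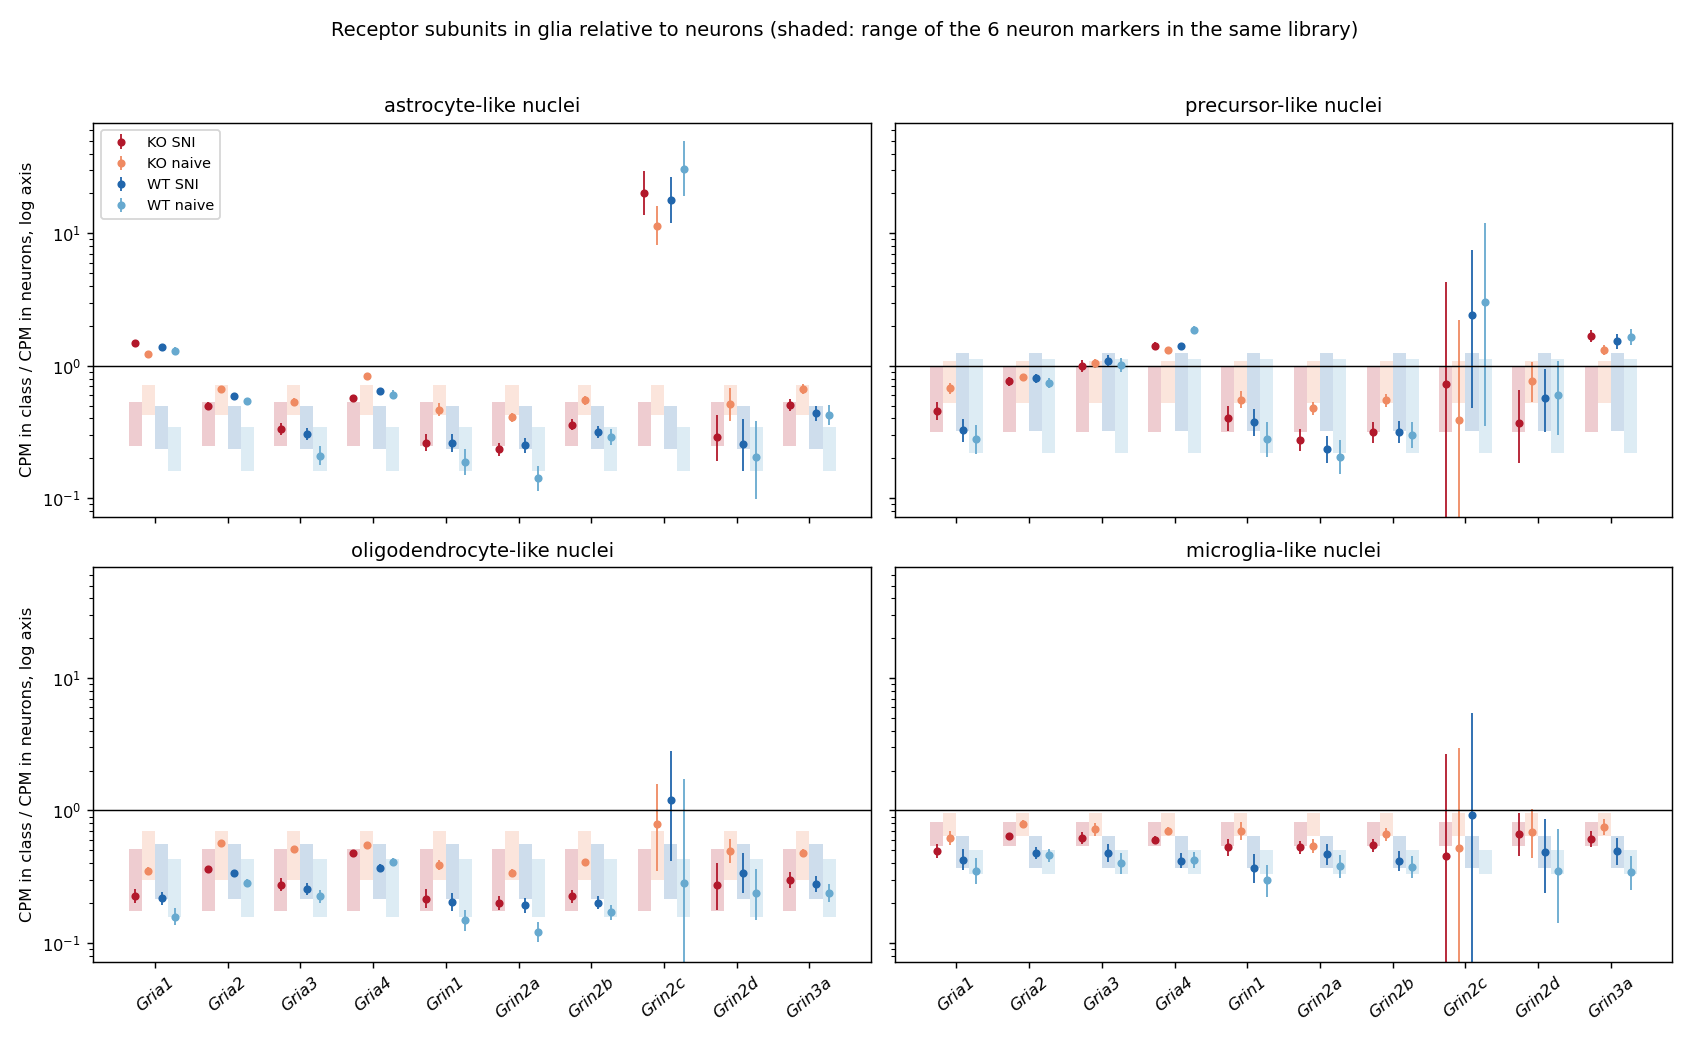
CPM of each subunit in a glial class divided by that in all neurons of the same library (log axis), with exact 95% intervals; shaded bars give the range of the 6 neuron markers in that class and library, and classes with 0 UMIs have no point. Grin2c lies at 11.5 to 30.6 in astrocyte-like nuclei, and Gria4 and Grin3a lie above 1 in precursor-like nuclei.

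Between libraries, most glial values were highest in KO naive, the library with the most neuron marker RNA in glia. In KO naive against WT naive, 7 of 10 members were 1.5-fold higher in astrocyte-like nuclei and 1 was lower (17.7% and 12.8% of all genes), 9 of 9 were higher in oligodendrocyte-like nuclei (17.2%), 6 of 8 in microglia-like nuclei (19.4%) and 4 of 8 in precursor-like nuclei (16%). The shares of all genes lower were 10.4%, 20% and 12.7% in the last 3 classes, with 0 members lower. The neuron markers summed to 3742 CPM in KO naive and 1531 CPM in WT naive astrocyte-like nuclei, and to 3369 and 1581 CPM in oligodendrocyte-like nuclei. In microglia-like nuclei the sums were 5216 and 3060.5 CPM, and in precursor-like nuclei 4546 and 2409 CPM. The part of neuronal RNA in these differences was not tested. Most oligodendrocyte-like nuclei of KO naive also formed a cluster of their own (4373 nuclei, against 34 from WT naive).

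Members above every neuron marker in 4 of 4 libraries did not share a direction in the naive pair. In astrocyte-like nuclei Gria1 was at -0.01 (-0.13 to 0.12), Grin2c at -0.81 (-1.35 to -0.26), lower in the knockout, and Gria4 at 0.83 (0.71 to 0.95), higher in the knockout. In precursor-like nuclei, Gria4 was at -0.15 (-0.27 to -0.02) and Grin3a at -0.04 (-0.28 to 0.20). Of the members above the markers in only some libraries, astrocyte Gria2 (2 of 4) was at -0.01 (-0.12 to 0.11) and astrocyte Grin3a (1 of 4) at 0.94 (0.67 to 1.21).

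In KO SNI against WT SNI, 0 members were past 1.5-fold in any glial class, beside 4.89% of all genes higher and 3.66% lower in astrocyte-like, 4.44% and 6% in precursor-like, 3.89% and 4.44% in oligodendrocyte-like and 9.95% and 12.7% in microglia-like nuclei. Here the neuron markers of astrocyte-like nuclei were nearly level, with 2306 CPM in KO SNI and 2197 CPM in WT SNI. Astrocyte Gria1 was higher in the knockout at 0.19 (0.09 to 0.29) and astrocyte Gria2 lower at -0.34 (-0.45 to -0.23). Grin2c was at 0.13 (-0.35 to 0.61), an interval that includes 0 and a 1.5-fold difference. In microglia-like nuclei 8 of 8 members tested were higher in KO SNI, with a median log2 ratio of 0.36, beside -0.06 over all genes. The share of all genes higher was not taken. List medians in the same nuclei were 0.69 for scaffold, 0.59 for other ionotropic, 0.52 for auxiliary, 0.46 for regulator and 0.04 for editing genes, so the lean was not particular to the members. Gria4 had 755 CPM in KO SNI and 503 CPM in WT SNI there, a log2 ratio of 0.58 (0.37 to 0.80), barely under the 1.5-fold line. With TMM factors Gria4 was past that line, at 0.70, so the count of 0 turns on the scaling. The neuron markers of these nuclei summed to 4576 CPM in KO SNI and 3549 CPM in WT SNI, and their part in the values was not tested. The count of 0 also did not hold in nuclei with at least 500 genes and 1000 UMIs. There, members past 1.5-fold higher in KO SNI were Gria1 (0.90), Gria4 (0.97), Grin1 (0.75), Grin2a (1.07) and Grin2b (1.30) in oligodendrocyte-like nuclei. Grin2a (0.67) in astrocyte-like, Gria1 (0.89) and Grin2a (0.80) in precursor-like and Grin1 (0.65) in microglia-like nuclei were also past it. The share of all genes past 1.5-fold is not given for that filter. In oligodendrocyte-like nuclei of that depth, Rbfox3 stood at 0.404 of its neuronal level in KO SNI and 0.249 in WT SNI, and Celf4 at 0.583 and 0.287. Syt1, Elavl4 and Snhg11 were also higher in KO SNI, whereas Snap25 was lower (0.490 and 0.519). The part of neuronal RNA in these values was not tested. Against KO naive, KO SNI had 5 members lower by 1.5-fold in astrocyte-like nuclei (9.06% of all genes), 8 in oligodendrocyte-like nuclei (11%), 2 in precursor-like nuclei (7.98%) and 0 in microglia-like nuclei (5.54%). None was higher, beside 10.9%, 8.23%, 8.75% and 10.8% of all genes in the same classes. In nuclei with at least 500 genes and 1000 UMIs, 3 NMDA values and Gria1 turned round in oligodendrocyte-like nuclei: Gria1 0.39, Grin1 0.18, Grin2a 0.23 and Grin2b 0.48. Against WT naive, WT SNI had 1 member higher by 1.5-fold, Grin2a, in astrocyte-like nuclei (8.92%) and in oligodendrocyte-like nuclei (8.55%). In precursor-like and microglia-like nuclei it had 0 higher (8.85% and 10.2%). The counts lower were 0 in astrocyte-like (3.72%), oligodendrocyte-like (3.28%), precursor-like (4.06%) and microglia-like nuclei (8.9%).

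The share of nuclei with at least 1 UMI was taken after each nucleus was thinned to 1000 UMIs. Any AMPA gene was seen in 96.4%, 97.5%, 96.6% and 97.1% of excitatory nuclei of KO SNI, KO naive, WT SNI and WT naive, and any NMDA gene in 87.7%, 88.1%, 86.6% and 88.5%. Microglia-like nuclei, taken as a class that lacks these receptors, gave 84.5%, 91.9%, 74.5% and 74.8% for AMPA genes and 69.0%, 71.9%, 51.0% and 48.0% for NMDA genes. Shares of other classes near these values cannot be told apart from background. Grin2c was seen in 3.83%, 2.68%, 4.59% and 5.33% of thinned astrocyte-like nuclei (4.07%, 4.12%, 4.70% and 5.21% before thinning). Thinned microglia-like nuclei had it in 0%, 0.426%, 0% and 0%. The median depth was 828, 1175.5, 1061 and 937 UMIs in astrocyte-like nuclei and 823.5, 901.5, 825 and 737.5 UMIs in microglia-like nuclei.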

How the data were processed

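The files deposited by the authors hold raw UMI counts, 1 matrix for each of 4 libraries, with 32285 genes; Cell Ranger 7.0.0 made them per the file headers. GRCm38, Seurat 4.3.0 and R 4.3.0 appear in the submitters' processing notes. How introns and strand were handled was not stated. Nuclei needed 300 genes or more and less than 5% of UMIs from mitochondrial genes. Doublets were to be called with scrublet. Scores of the same kind, from simulated doublets, were used in its place, and the top 10% were marked and removed (9.70% to 9.99% of nuclei per library), leaving 25159, 33751, 24421 and 17783 nuclei in KO SNI, KO naive, WT SNI and WT naive. The libraries were clustered together, uncorrected, on 40 components of 3000 variable genes (Leiden, resolution 1, leidenalg 0.10.2, Python 3.11.15), with members and list genes left out, and clusters above 10000 nuclei were divided again. Names came from fixed markers, but the thresholds were set after the clusters had been seen. A glial name needed 66.7% of its markers 2-fold up, a neuronal one 50% of neuron markers, and excitatory and inhibitory marker means had to differ by 0.8 log2 units.

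UMIs were summed per class and library and given as CPM. Intervals are exact (95%): Poisson for levels, conditional binomial for ratios, Clopper-Pearson for shares. A gene entered a comparison with at least 50 UMIs over both libraries, and 1.5-fold stood in place of a test. A count of 0 was set to 3 UMIs in ratios. The calculations were tested on simulated counts. Named genes are the members, for each list the 2 genes with the largest ratios in each neuronal comparison (those quoted are a part of them), the 2 most alike genes per member, Gpr37l1, Atf3 and Sprr1a. The members and lists were chosen with earlier results of these data known. Alternatives covered doublets, depth filters, resolution, TMM scaling, thinning, cluster make-up, nuclei called by their own markers and UMI minimums.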

Additional observations from a re-analysis of the deposited data

Results flagged for a closer look

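Grin2a went past 1.5-fold in opposite directions after injury in the 2 genotypes, in 2 glial classes. In astrocyte-like nuclei it was lower in KO SNI than in KO naive, at a log2 ratio of -0.84 (-1.05 to -0.64), beside 9.06% of all genes 1.5-fold lower. It was higher in WT SNI than in WT naive, at 0.77 (0.41 to 1.14), beside 8.92% of all genes 1.5-fold higher. In oligodendrocyte-like nuclei the values were -0.80 (-0.99 to -0.60) for KO SNI against KO naive and 0.60 (0.30 to 0.90) for WT SNI against WT naive. There 11% of all genes were 1.5-fold lower in the first comparison and 8.55% higher in the second. The share of all genes past 1.5-fold in opposite directions was not taken. Both oligodendrocyte values changed sign in nuclei with at least 500 genes and 1000 UMIs, to 0.23 for KO SNI against KO naive and -0.25 for WT SNI against WT naive, and when thinned to 1000 UMIs, to 0.26 and -0.35. The difference was not tested, because each arm is 1 library. The summed neuron markers moved the same way in astrocyte-like nuclei, with 2306 CPM in KO SNI and 3742 CPM in KO naive, and 2197 CPM in WT SNI and 1531 CPM in WT naive. In oligodendrocyte-like nuclei they stood at 2105 CPM in KO SNI and 3369 CPM in KO naive, and at 2056 CPM in WT SNI and 1581 CPM in WT naive. Their part in the Grin2a values was not tested. Grin2a itself was above every neuron marker in 0 libraries in both classes.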

How the results depend on the processing

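No paired analysis was possible because each group is 1 library and the labels give no replicate numbers. The counts of members past 1.5-fold in neurons, all 0, became 1 or 2 under some settings. KO naive against WT naive had 1 higher in excitatory nuclei with TMM factors (Gria4, 0.63). With at least 20 UMIs it had 1 higher there too, Grin2c, with 22 UMIs in KO naive and 4 in WT naive. In inhibitory nuclei 2 were higher with TMM factors (Grin2c and Grin3a, 0.59 in both). In the same inhibitory comparison 1 was higher when thinned to 1000 UMIs (Grin3a, 0.61), and nuclei called by their own markers gave 1 higher and 1 lower (Grin1, -0.65). KO SNI against KO naive had 1 lower in excitatory nuclei with at least 20 UMIs (Grin2c, 6 UMIs in KO SNI and 22 in KO naive). KO SNI against WT SNI had 1 higher in excitatory nuclei called by their own markers (Grin3a, 0.68), and 1 higher in inhibitory nuclei with marked doublets kept or at resolution 0.5 (Grin2c, 0.61 in both). Members above every neuron marker in 4 of 4 libraries numbered 0 in precursor-like nuclei with doublets kept, with at least 500 genes and 1000 UMIs, thinned, and called by markers, against 2. The quotients of Gria4 were 1.31 to 1.86 in the reported setting, and 1.28 to 1.64, 1.22 to 1.75, 1.33 to 2.0 and 1.15 to 1.32 in these. In astrocyte-like nuclei the count was 2 with the depth filter, 1 when thinned and 1 when called by markers, against 3, and Gria1 was above in 4 of 4 libraries each time. Grin2c was above in 4 of 4 when thinned (11.98 to 30.4) but had under 50 UMIs in at least 1 library and so was not counted, and Gria4 was above in 3 of 4 with the filter and when thinned. The count of members 1.5-fold lower in excitatory than in inhibitory nuclei in 4 of 4 libraries, 1 in the reported setting (Gria3), was 0 when called by markers. Without the KO naive library, an alternative added after the data were seen, the 6 counts over libraries were unchanged. Marker-called neurons were few, 96 to 127 excitatory ones per library, whereas 1857 to 2689 nuclei per library were called precursors, of which 323 to 427 lay in the precursor-like class. TMM factors in microglia-like nuclei were -0.12 (KO SNI against WT SNI) and -0.14 (KO naive against WT naive) on the log2 scale. Of 215 member ratios between libraries, 207 stayed within their counting interval at resolution 0.5, 192 with doublets kept and 184 with TMM factors. With the depth filter 154 did, when thinned 142 and when called by markers 94. Of 37 excitatory to inhibitory ratios, 35 stayed with the depth filter, 32 at resolution 0.5 and 29 with doublets kept. When thinned 21 of them stayed, and when called by markers 10. Reversed values were few. In precursor-like nuclei they were Grin1 in KO naive against WT naive (-0.051 with doublets kept, -0.28 by markers), Grin2b there (-0.085 by markers) and Grin2b in KO SNI against KO naive (0.0027 by markers). In oligodendrocyte-like nuclei of KO SNI against KO naive they were Gria1 (0.39 with the depth filter, 0.14 thinned), Grin1 (0.18 with the filter), Grin2a (0.23 and 0.26) and Grin2b (0.48 and 0.53), and of WT SNI against WT naive Grin2a (-0.25 and -0.35). By markers, Grin2a in microglia-like nuclei of KO naive against WT naive was -0.36, and the KO naive excitatory to inhibitory ratio of Grin2c was 1.41. The causes were not tested. Depth limits Grin2c and Grin2d most, with at most 86 and 53 UMIs in astrocyte-like nuclei of any library.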
